A study of Mus musculus with 9 samples.

Results

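The genes described here are those for the subunits of the constitutive proteasome in HT22, a line of immortalized neurons of the mouse hippocampus. They were chosen by name, as protein-coding genes whose symbol begins with Psma, Psmb, Psmc or Psmd and a digit, leaving out the inducible subunits Psmb8, Psmb9 and Psmb10. The rule found 37 of 54532 gene IDs. It used no measured value. The 37 are Psma1 to Psma8, Psmb1 to Psmb7, Psmb11, Psmc1 to Psmc6, Psmd1 to Psmd14 and Psmc3ip. Psmc3ip met the rule by its name alone, since it encodes a factor of meiotic recombination and not a subunit. RNA-seq was done on 9 libraries in 3 groups of 3. OGE cells were kept for 2 h without oxygen and glucose (OGD) and then reoxygenated for 24 h with extracellular vesicles of mesenchymal stem cells made from human induced pluripotent stem cells (hiPS-MSC-EVs). OGP cells had the same 2 h and 24 h with PBS in place of the vesicles, and control cells were left without treatment. All 3 groups carry the wild-type genotype label. The sample labels give no EV dose. The sources also differ on the serum in the medium after OGD, so a difference in serum between OGE and OGP cannot be told apart from the EVs.

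The proteasome breaks down proteins that carry ubiquitin chains, among them short-lived regulators and proteins damaged by stress. Its barrel-shaped 20S core is built of rings of alpha subunits (Psma), which form the gate, and rings of beta subunits (Psmb). Only Psmb5, Psmb6 and Psmb7 of the constitutive core cut peptide bonds. The 19S regulatory particle caps the core, and its base holds a ring of ATPases (Psmc) that unfold substrates and the large scaffold or ubiquitin-binding subunits Psmd1, Psmd2 and Psmd4. Its lid holds the deubiquitinase Psmd14. Psmd5, Psmd9 and Psmd10 encode chaperones that help to assemble the base and are not part of the finished particle. In mammalian cells the transcription factor NFE2L1 raises the transcription of subunit genes of both particles when proteasome activity falls.

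NFE2L1 binds antioxidant response elements, whose core reads TGACNNNGC or TGAGNNNGC. Both letter strings, and the CCAAT box of many promoters, were searched on both strands in the RefSeq promoter windows of GRCm38.p6, 250 bases before to 50 after a gene's start. Of the 37 members, 30 had such a window, 32 windows in all. TGAGNNNGC occurred in 13 of the 32 windows (40.6%), against 17.6% of all 32851 windows. TGACNNNGC occurred in 5 (15.6%, against 12.4% of all windows) and CCAAT in 13 (40.6%, against 37.4%). The first 2 strings cannot match at the same base of the same strand, and 16 windows (50%) held at least 1 of them, against 27.8% of all windows. A match is a run of letters and was not tested for binding. In 24 of the 32 windows the RefSeq start lay within 50 bases of the gene's start in the deposited annotation, and in 8 it lay further away. Among these 8, the windows of Psmd1, Psmd5 and Psmd13 held TGAGNNNGC. Their RefSeq starts lay 232, 4006 and 426 bases inside the gene. Psmc3ip, which is not a subunit, is also among the genes with TGAGNNNGC. The windows were not matched for base composition. The sequence before both starts is shown for 2 members that the results below turn on. Psma4 rose in OGP cells, and Psmb6 is a catalytic subunit that passed the test in neither direction. Capitals mark the match to TGAGNNNGC (Psma4) or TGACNNNGC (Psmb6).
Psma4, chr9:54950609-54950789, + strand: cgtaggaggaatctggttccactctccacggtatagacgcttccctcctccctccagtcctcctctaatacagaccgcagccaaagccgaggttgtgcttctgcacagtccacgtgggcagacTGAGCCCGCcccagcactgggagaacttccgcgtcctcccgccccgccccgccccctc
Psmb6, chr11:70525107-70525356, + strand: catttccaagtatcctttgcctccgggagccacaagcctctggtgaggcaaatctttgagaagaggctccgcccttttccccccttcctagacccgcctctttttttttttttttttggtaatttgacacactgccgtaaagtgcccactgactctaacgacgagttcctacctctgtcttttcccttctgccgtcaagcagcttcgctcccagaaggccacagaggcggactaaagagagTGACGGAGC
The match lies 127 bases before the RefSeq start of Psma4 and 58 bases before the start in the files. In Psmb6 it lies 9 and 19 bases before them. The window of Psma4 holds a second match past the end of the stretch shown. The window of Psmd1, which fell in OGP cells, also held TGAGNNNGC, 224 bases before its RefSeq start but 8 bases behind the start in the files, so its sequence is not shown.

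The constitutive proteasome genes were strongly expressed in all 9 libraries. FPKM, fragments scaled to gene length and library depth, had a median of 67.4 over the 35 members that passed the filter of a mean of at least 0.5 FPKM, against 7.11 over the 13245 genes that passed it. Among these members 34 lay above the median of all genes, and 25 lay above 43.6 FPKM, the level that 10% of genes exceeded. The 2 members that did not pass encode subunits of other tissues. Psma8, known from testis (chromosome 18 from 14706151 to 14762299 of mm10), was at 0 in every library, and Psmb11, known from the thymus, did not exceed 0.0369 FPKM. In the 20S core the mean over the 9 libraries ran from 41.7 FPKM for the alpha subunit Psma2 to 186 FPKM for the beta subunit Psmb4, a 4.45-fold range among subunits that the finished core holds in equal numbers. In the 19S particle it ran from 23.1 FPKM for the lid subunit Psmd11 to 127 FPKM for the ATPase Psmc5, a 5.48-fold range. With reads divided by the length of the longest annotated transcript in place of the gene length of the files, the ranges were 5.98-fold and 3.41-fold. The assembly chaperones had means of 26.8 FPKM for Psmd10, 19.6 FPKM for Psmd5 and 6.86 FPKM for Psmd9, the lowest of the 35. In bulk RNA, fewer cells and less RNA per cell cannot be told apart.

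The libraries held 15026700 to 19476806 reads in genes, and the 35 members took 0.665 to 0.771% of them, with 454 to 10798 reads per member and library. The spread between replicates was small in treated cells, with a median coefficient of variation over the members of 4.85% in OGE, 5.27% in OGP and 10.6% in control libraries, against 9.02%, 8.54% and 13.7% over all genes tested. The members also lay at a higher level (median 67.4 against 7.11 FPKM), and the spread was not compared among genes of equal level. The control libraries stood apart from each other. Control replicate 1 was the lowest of the 3 in 23 of 35 members (42.4% of all genes) and control replicate 2 the highest in 27 (32.5%). Mitochondrial transcripts took 2.03 to 2.90% of reads in OGE, 2.45 to 3.25% in OGP and 1.10 to 2.31% in control libraries. Of 8 neuronal markers, HT22 cells lacked Rbfox3, Nefl, Syp, Snap25 and Grin1 (group means at most 0.0451 FPKM), and Camk2a did not exceed a group mean of 0.192 FPKM. Tubb3 was at 14.0, 10.8 and 7.95 FPKM and Map2 at 1.34, 2.13 and 1.32 FPKM in OGE, OGP and control cells. Map2 rose in OGP against control (log2 fold change 0.54, limma adjusted p = 0.0231) and fell in OGE against OGP (-0.51, limma adjusted p = 0.0375), and Tubb3 rose in OGE against control alone (0.78, limma adjusted p = 0.00474). Of 4 markers each of astrocytes, microglia, oligodendrocytes and endothelium, none reached the filter. The part of the mitochondrial share, Map2 and Tubb3 in the results was not tested.

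**Figure D1:**
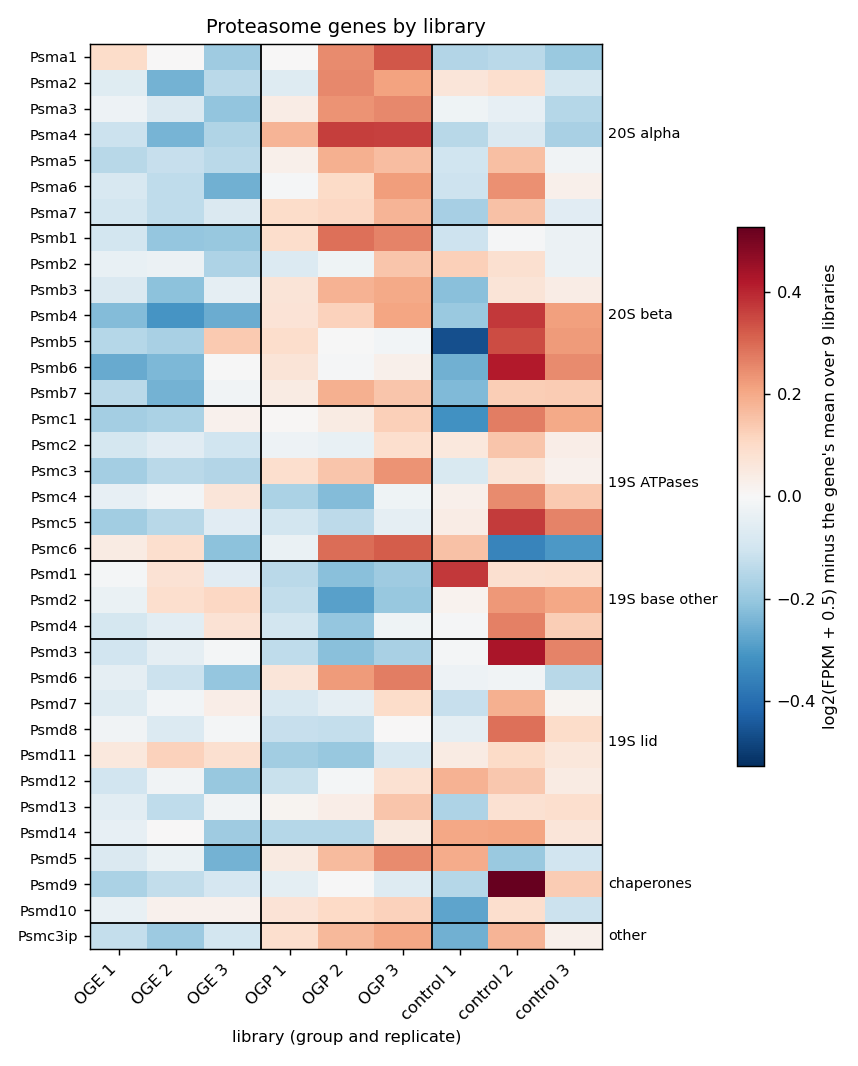
Each row is a member and each column a library (OGE, OGP, control). Colour gives log2(FPKM + 0.5) minus the gene's mean over the 9 libraries, red for higher. The alpha subunit rows are red in OGP replicates 2 and 3, the rows of Psmd1, Psmd2 and Psmd11 are blue in all OGP libraries, and control replicates 1 and 2 differ in many rows.

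OGD and reoxygenation were read from OGP against control cells. In the paper the medium during OGD held neither glucose nor serum, and control cells were left without treatment. Serum withdrawal and the change of medium thus cannot be told apart from OGD and reoxygenation in this comparison. No member's fitted fold reached 1.5 in either direction, and the largest was 1.35-fold for Psma4. With the study's limits, an adjusted p of 0.05 or less (limma, over all genes) together with a change of 1.5-fold or more, 0 of 35 members were called, against 12.1% of all genes. By the adjusted p alone 10 members were called (28.6%, against 29.8% of all genes), 4 higher (11.4%, against 13.8%) and 6 lower (17.1%, against 16.0%). The share of members called was thus near that of all genes. Of the 4 higher members 3 were 20S subunits, and all 6 lower members were 19S subunits.

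Psma4, an alpha subunit of the gate ring, had 129.6, 147 and 147 FPKM in OGP cells, against 103, 109 and 102 FPKM in control cells. All OGP libraries lay above all control libraries, and the log2 fold change was 0.43 with an SE of 0.0796 (adjusted p = 0.00395). Psma1, another alpha subunit, had 84.7, 101 and 106 FPKM in OGP cells, against 75.9, 76.5 and 73.6 FPKM in control cells, a log2 fold change of 0.36 with an SE of 0.104 (adjusted p = 0.0298). Psmb1, a beta subunit without a catalytic site, had 64.6, 74.1 and 72.8 FPKM in OGP cells, against 56.2, 60.3 and 59.3 FPKM in control cells, a log2 fold change of 0.26 with an SE of 0.0776 (adjusted p = 0.0318). For Psma1 and Psmb1 too the groups did not overlap, though OGP replicate 1 was the nearest to the controls. The only 19S member that rose was the lid subunit Psmd6, with 77.9, 87.0 and 89.9 FPKM in OGP cells and 73.0, 73.4 and 67.2 FPKM in control cells, a log2 fold change of 0.25 with an SE of 0.0826 (adjusted p = 0.0468).

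The 6 members that fell were subunits of the 19S base and lid. Psmd1, a scaffold subunit of the base, had 31.1, 29.4 and 30.1 FPKM in OGP cells, against 44.6, 36.4 and 36.5 FPKM in control cells, a log2 fold change of -0.37 with an SE of 0.0908 (adjusted p = 0.0155). Psmd2, the other large scaffold of the base, had 114, 102 and 109 FPKM in OGP cells, against 127, 146 and 144 FPKM in control cells, a log2 fold change of -0.36 with an SE of 0.0860 (adjusted p = 0.0138). Each OGP library was lower than each control library for both genes. Psmd3, a lid subunit, had 46.7, 44.0 and 45.5 FPKM in OGP cells, against 51.0, 69.4 and 61.7 FPKM in control cells, a log2 fold change of -0.40 with an SE of 0.106 (adjusted p = 0.0195). Its control libraries were spread widely, and control replicate 1 was close to the OGP libraries. Psmd11, which stabilizes the joint of lid, base and core, had 20.3, 19.995 and 21.7 FPKM in OGP cells, against 23.8, 24.8 and 24.1 FPKM in control cells, a log2 fold change of -0.22 with an SE of 0.0650 (adjusted p = 0.0291). Of the ATPases, Psmc5 had 118, 114 and 122 FPKM in OGP cells, against 129, 162 and 151 FPKM in control cells, a log2 fold change of -0.32 with an SE of 0.0929 (adjusted p = 0.0306). Psmc4 had 53.4, 51.2 and 59.0 FPKM in OGP cells, against 61.1, 71.4 and 66.2 FPKM in control cells, a log2 fold change of -0.28 with an SE of 0.0853 (adjusted p = 0.0367). The groups of Psmd11, Psmc5 and Psmc4 did not overlap either.

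**Figure D2:**
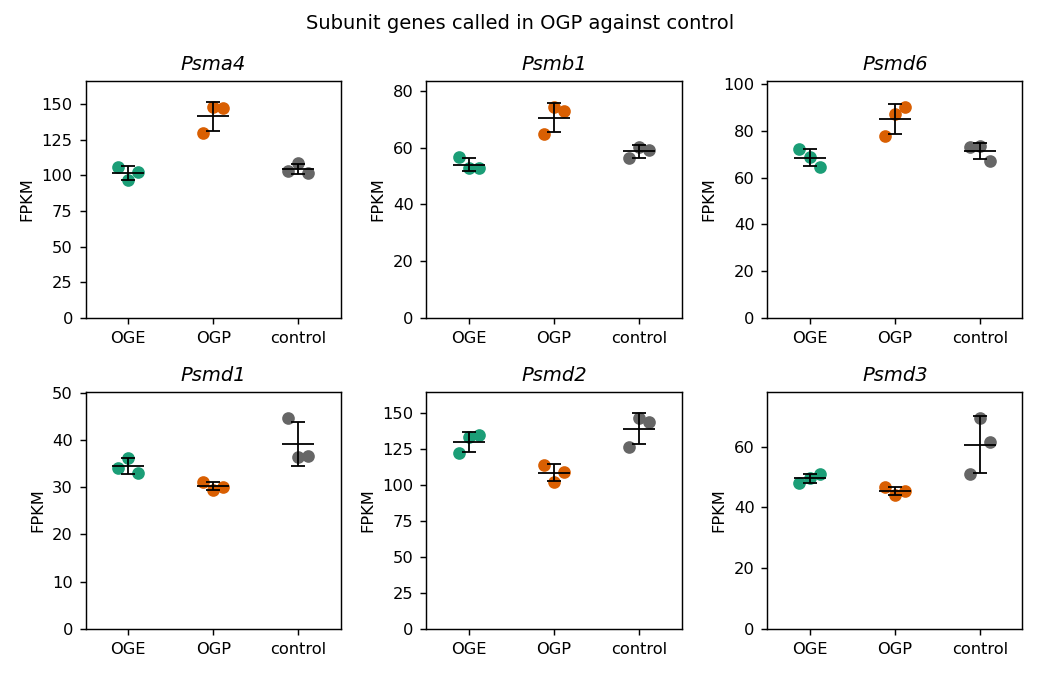
FPKM of 6 members called in OGP against control, per library (points), with the mean and SD over 3 libraries (bars), for OGE, OGP and control. OGP libraries lie above both other groups for Psma4, Psmb1 and Psmd6, and below both for Psmd1, Psmd2 and Psmd3.

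The catalytic subunits passed the test in neither direction. Psmb5, which carries the chymotrypsin-like site, had 88.7, 83.1 and 82.4 FPKM in OGP cells, against 60.1, 106 and 97.1 FPKM in control cells. The OGP libraries lay within the wide range of the controls, and the log2 fold change was -0.01 with an SE of 0.190 (adjusted p = 0.978). Psmb6, with the caspase-like site, had 108, 102 and 105 FPKM in OGP cells, against 86.1, 138 and 122 FPKM in control cells, a log2 fold change of -0.11 with an SE of 0.157 (adjusted p = 0.637). Psmb7, with the trypsin-like site, had 43.7, 48.3 and 46.9 FPKM in OGP cells, against 36.0, 46.4 and 46.6 FPKM in control cells, a log2 fold change of 0.11 with an SE of 0.112 (adjusted p = 0.476). The 95% intervals ran from -0.44 to 0.42 for Psmb5, from -0.46 to 0.25 for Psmb6 and from -0.14 to 0.37 for Psmb7 on the log2 scale, so that a change of 1.5-fold in either direction lay outside each of them. Over the members, 31 of 35 intervals lay within 1.5-fold either way. The direction of these values depended on single libraries, and for Psmb5 also on the scaling and for Psmb7 on the GC correction. Without control replicate 1, Psmb6 was called lower with a log2 fold change of -0.30 (limma adjusted p = 0.0328), and Psmb5 had -0.26 (adjusted p = 0.0757). Without control replicate 1 and OGE replicate 3 together, both were called lower (adjusted p = 0.0174 for Psmb5 and 0.0108 for Psmb6).

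Counted by role, all 7 tested alpha subunits had a log2 fold change above 0 (median 0.16, 4 to 7 over the 25 alternatives), and 4 of 7 beta subunits did (median 0.00). In the 20S core as a whole 11 of 14 lay above 0 (6 to 13 over the alternatives), 3 rose, 0 fell and 11 did not pass the test, with a median of 0.11 (0.069 without control replicate 1 and 0.18 without control replicate 2). In the 19S particle 12 of 17 lay below 0 (11 to 14), 1 rose, 6 fell and 10 did not pass, with a median of -0.19 (-0.13 without control replicate 2). All 3 non-ATPase base subunits lay below 0, as in each of the 25 alternatives (median -0.36, 2 fell), and the 6 ATPases divided evenly (median -0.03, 2 fell). Other filters, other variances, the replicate block, 6 libraries alone and leaving out an OGE library cannot change a fold change here. Agreement in those alternatives was fixed in advance. The median over the 35 members was 0.01, as over all genes tested (0.01). Of all 13245 genes tested, 6709 lay above 0 and 6536 below. The groups did not overlap in 15 members, 42.9% both of members and of all genes. Of these, 7 were higher (20% of members, against 20.3% of all genes), 5 of them 20S subunits. The other 8 were lower (22.9%, against 22.6% of all genes), all 19S subunits. Both shares were near those of all genes. Among the members that the test did not call, the ATPase Psmc6 had 65.0, 81.7 and 83.2 FPKM in OGP cells and 74.2, 52.3 and 53.9 FPKM in control cells. Psmd14, the deubiquitinase, had 50.5, 50.4 and 58.0 FPKM in OGP cells and 64.6, 64.8 and 58.5 FPKM in control cells. Its OGP libraries were below the controls, and those of Psmc6 were not separated from them.

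The calls in OGP against control rested on few libraries. The 6 lower calls became 0 without OGP replicate 2, 1 without control replicate 3, 3 without control replicate 2, OGP replicate 1, OGP replicate 3 or OGE replicate 1, and 10 without control replicate 1, and the 4 higher calls became 1 without OGP replicate 2, OGP replicate 3 or control replicate 3, 2 without OGE replicate 1 and 7 without control replicate 1. With library medians made equal, 5 members were higher (Psma4, Psma1, Psmd6, Psmb1 and Psma3) and 3 lower (Psmd2, Psmd3 and Psmd1), and Psma4 was called in all 25 alternatives.

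The effect of hiPS-MSC-EVs was read from OGE against OGP cells, which share the OGP libraries with the comparison above, so that a high or low OGP library moves both in opposite ways. By adjusted p and fold, 0 of 35 members were called, against 8.12% of all genes. By the adjusted p alone 6 were called (17.1%, against 20.8% of all genes), 1 higher (2.86%, against 10.6%) and 5 lower (14.3%, against 10.2%). All 14 subunits of the 20S core had a log2 fold change below 0 (12 under quantile normalization or with transcript length corrected), with a median of -0.26, of which 3 fell and 11 did not pass the test. This median was -0.080 under quantile normalization and -0.11 with transcript length corrected. Of all 13245 genes tested, 6678 lay above 0 and 6567 below. The 17 members of the 19S particle divided into 8 above (7 to 12 over the alternatives) and 9 below 0. They had a median of -0.01, and 1 rose and 2 fell. Their median turned to 0.14 under quantile normalization or with transcript length corrected, and to 0.049 without OGP replicate 3. The 3 non-ATPase base subunits Psmd1, Psmd2 and Psmd4 lay above 0, with a median of 0.19, and 0 of them passed the test. They also lay above 0 in each of the 25 alternatives, though several of these cannot change a fold change.

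Psma4 had 106, 96.5 and 102 FPKM in OGE cells, against 129.6, 147 and 147 FPKM in OGP cells, a log2 fold change of -0.47 with an SE of 0.0796 (adjusted p = 0.00361). The OGE libraries all lay below the OGP libraries and overlapped the range of the control libraries. Psmb1 had 56.7, 52.6 and 52.7 FPKM in OGE cells, against 64.6, 74.1 and 72.8 FPKM in OGP cells, a log2 fold change of -0.38 with an SE of 0.0776 (adjusted p = 0.00916). Psma3, an alpha subunit, had 46.3, 44.7 and 40.8 FPKM in OGE cells, against 48.6, 55.7 and 56.3 FPKM in OGP cells, a log2 fold change of -0.28 with an SE of 0.0858 (adjusted p = 0.0472). For Psmb1 and Psma3 as well the groups did not overlap. Among 19S subunits, the ATPase Psmc3 had 81.5, 83.5 and 82.8 FPKM in OGE cells, against 98.0, 102 and 109 FPKM in OGP cells, a log2 fold change of -0.31 with an SE of 0.0729 (adjusted p = 0.0161). Psmd6 had 72.0, 68.7 and 64.6 FPKM in OGE cells, against 77.9, 87.0 and 89.9 FPKM in OGP cells, a log2 fold change of -0.31 with an SE of 0.0826 (adjusted p = 0.0288). Psmd11 was the only member that rose, with 24.0, 25.2 and 24.5 FPKM in OGE cells, against 20.3, 19.995 and 21.7 FPKM in OGP cells, a log2 fold change of 0.24 with an SE of 0.0650 (adjusted p = 0.0287). The OGE libraries of Psmc3 and Psmd6 lay below, and those of Psmd11 above, all OGP libraries.

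The catalytic subunits had lower values in OGE cells that did not pass the test. Psmb5 had 74.8, 73.8 and 91.5 FPKM in OGE cells, and its log2 fold change against OGP was -0.09 with an SE of 0.190 (adjusted p = 0.782). Psmb6 had 85.5, 87.3 and 103 FPKM in OGE cells, with -0.20 with an SE of 0.157 (adjusted p = 0.414) on the log2 scale. Psmb7 had 38.4, 35.5 and 41.8 FPKM in OGE cells, with -0.26 with an SE of 0.112 (adjusted p = 0.131). Only for Psmb7 did the libraries of the 2 groups not overlap. Psmb7 was called lower with 6 libraries alone, without control replicate 1 (limma adjusted p = 0.0276) and without control replicate 1 and OGE replicate 3 together (adjusted p = 0.0118), where Psmb6 was called too (log2 fold change -0.28, adjusted p = 0.0215). The OGE and OGP groups did not overlap in 21 members (60%, against 45.4% of all genes). They were lower in OGE in 17 (48.6%, against 22.0% of all genes), 9 of them 20S subunits, and higher in 4 (11.4%, against 23.3%). The 4 were Psmd1, Psmd2, Psmd3 and Psmd11. Psmd1 had 34.1, 36.2 and 33.0 FPKM in OGE cells, and Psmd2 had 122, 133 and 135 FPKM, both without passing the test. Of the 95% intervals, 33 of 35 lay within 1.5-fold either way. The median log2 fold change of the 35 members was -0.16, against 0.00 over all genes. It depended on the scaling, with -0.04 under quantile normalization, where 4 members were higher (Psmd2, Psmd4, Psmc4 and Psmd11) and 2 lower (Psma4 and Psmb1), and with equal medians 0 were higher and 7 lower. Without control replicate 1, which enters through the shared estimate of the spread, 3 were higher and 12 lower. The 5 lower calls became 8 without control replicate 2, 2 without OGP replicate 2, OGP replicate 3, OGE replicate 1 or OGE replicate 2 and 3 without OGE replicate 3, and Psmd11 was not called without OGP replicate 1, OGP replicate 2 or any of the 3 OGE replicates. Psma4 and Psmb1 were called in all 25 alternatives.

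**Figure D3:**
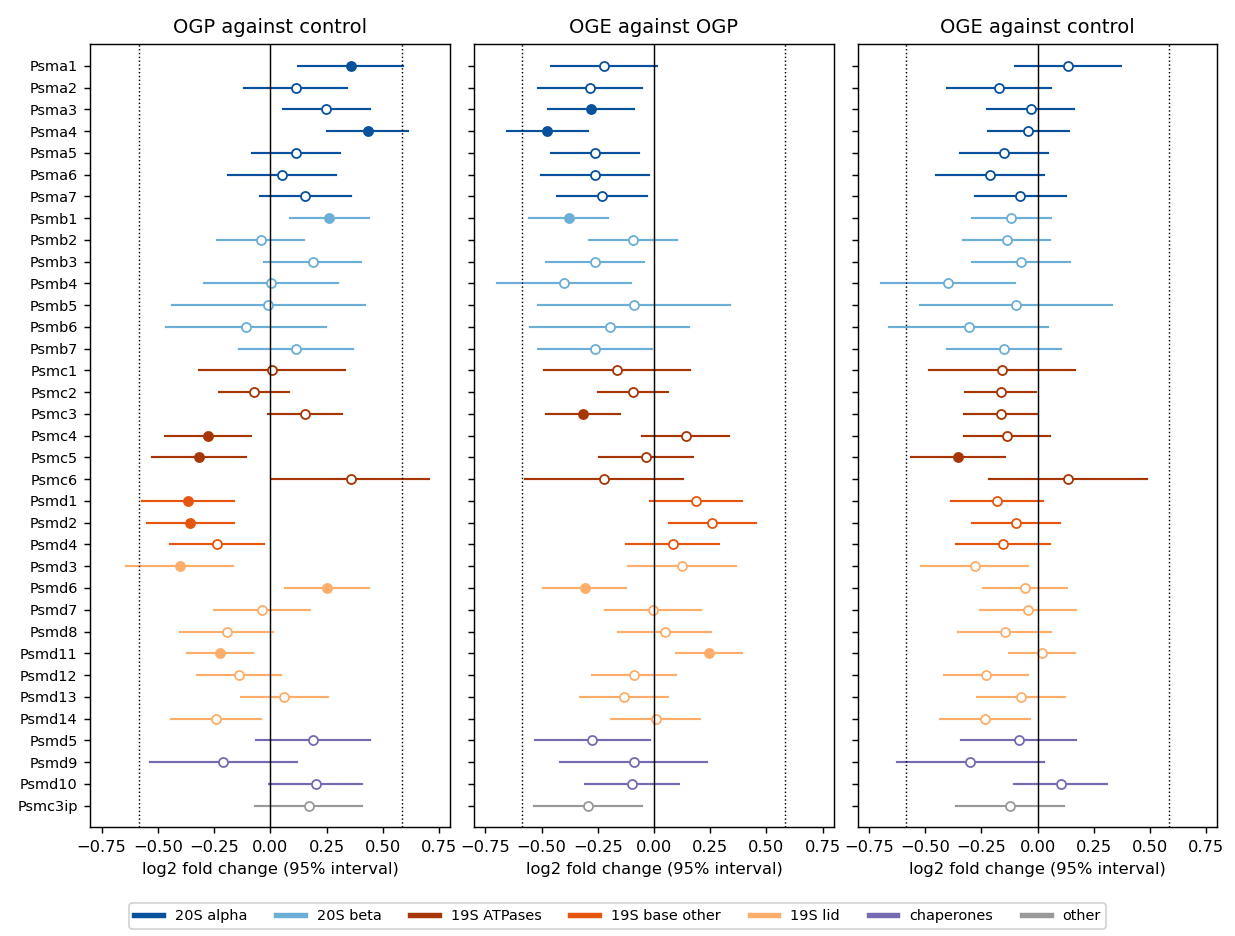
Log2 fold change (point) and 95% interval (line) of the 35 members in OGP against control, OGE against OGP and OGE against control, coloured by role. Filled points have an adjusted p of at most 0.05, and dotted lines mark 1.5-fold. All 14 20S points lie left of 0 in OGE against OGP (12 under quantile normalization or with transcript length corrected), and all 3 of the 19S base subunits other than ATPases lie left of 0 in OGP against control.

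The balance of transcripts for the particles was read per library. It is the summed FPKM of the 14 subunits of the 20S core over that of the 17 members of the 19S particle. Adrm1 and Sem1 are not in the 19S sum. Proteasome protein and assembled particles were not measured. The ratio was 1.17, 1.09 and 1.11 in OGE, 1.29, 1.36 and 1.31 in OGP and 1.08, 1.17 and 1.14 in control libraries. All OGP libraries thus lay above all others, and OGE and control libraries overlapped. The 20S sum was 1296 ± 25.3 FPKM in OGE, 1563 ± 81.6 in OGP and 1453 ± 153 in control (SD, n = 3 each). The 19S sum was 1153 ± 18.2 FPKM in OGE, 1184 ± 54.1 in OGP and 1283 ± 80.8 in control. Each particle's sum overlapped between OGP and control libraries, and their ratio did not. No test was made on the ratio. The difference between the median log2 fold changes of the particles (20S minus 19S) was 0.31 in OGP against control, and 0.21 to 0.34 over the 25 alternatives. It was -0.26 in OGE against OGP, and -0.29 to -0.21 over the alternatives. In OGE against control it was 0.03, and -0.04 to 0.05. Several alternatives leave these differences unchanged by design, among them equal medians, other filters, other variances, the replicate block and 6 libraries alone.

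**Figure D4:**
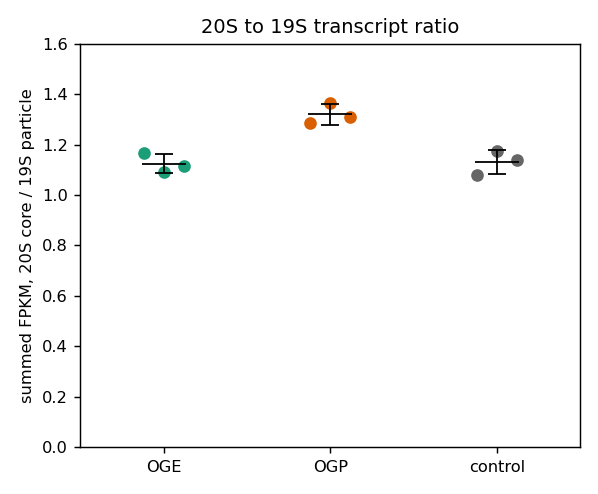
Summed FPKM of the 20S core over summed FPKM of the 19S particle per library (points), with mean and SD over 3 libraries (bars). The 3 OGP libraries, at 1.29 to 1.36, lie above the OGE libraries (1.09 to 1.17) and the control libraries (1.08 to 1.17).

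Transcript length and GC content moved with these values. The longest annotated transcript had a median of 1220 bases for the 20S subunits, 1983 for the 19S subunits and 2993 for all genes. Across the 13222 genes with a length, the log2 fold change of OGP against control had a Spearman's rho of -0.28 with length, and that of OGE against OGP one of 0.33. Across the 35 members the coefficients were -0.27 and 0.33. The rho with the GC content of the transcript was -0.37 across the members (-0.19 across all genes) in OGP against control, 0.21 (0.00 across all genes) in OGE against OGP and -0.29 (-0.20 across all genes) in OGE against control. Over all genes, a library's deviation from each gene's mean had a rho with GC content of -0.34, 0.43 and 0.42 in control replicates 1 to 3. It was 0.16, -0.24 and -0.18 in OGP replicates 1 to 3, and -0.22, -0.32 and 0.22 in OGE replicates 1 to 3. The part of this in the calls that depend on control replicate 1 was not tested. The genes of a library share its depth, so the coefficients are a description. With GC content and length fitted and removed within each library, 3 members were higher (Psma4, Psmb1 and Psmd5) and 10 lower in OGP against control. The 20S median was then -0.01 and the 19S median -0.23, so that the 20S median was no longer above 0 while the difference between the particles was 0.21. The corrected medians in OGE against OGP were -0.12 for the 20S core and 0.12 for the 19S particle, with 4 members higher (Psmd2, Psmd4, Psmc4 and Psmd1) and 5 lower. The part of transcript length and GC content in the 20S and 19S values was not tested beyond this correction.

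**Figure D5:**
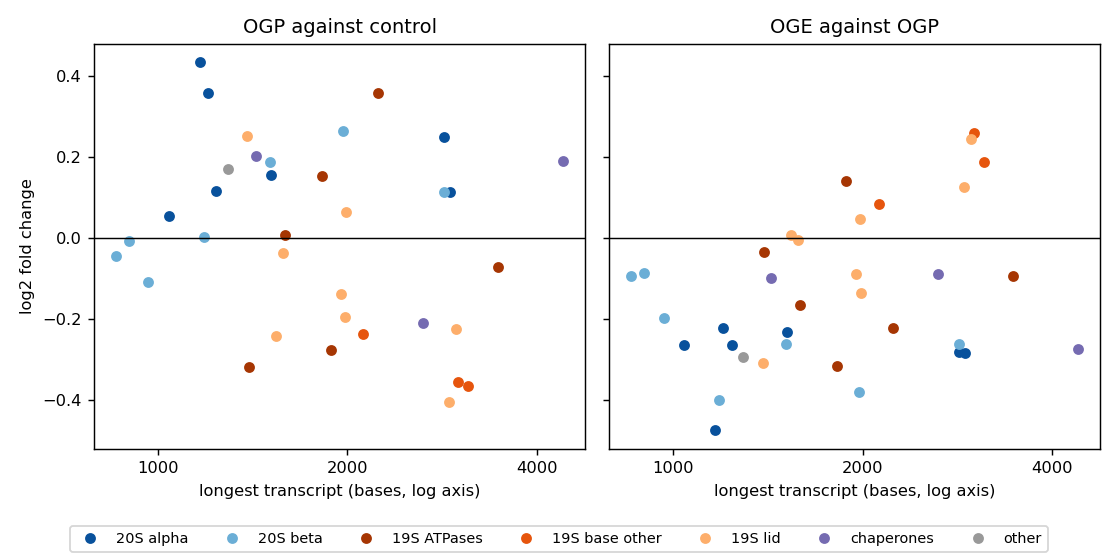
Log2 fold change of each member against the length of its longest annotated transcript in bases (log axis), coloured by role, for OGP against control and OGE against OGP. The 20S subunits are mostly shorter than the 19S subunits (medians 1220 and 1983 bases), and the long scaffold genes Psmd1 and Psmd2 lie low on the left and high on the right panel.

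OGE cells were also set against control cells. Psmc5 was the only member called (2.86%, against 24.8% of all genes), with 111, 114 and 121 FPKM in OGE cells, against 129, 162 and 151 FPKM in control cells, a log2 fold change of -0.35 with an SE of 0.0929 (adjusted p = 0.0226), and 0 members passed the fold threshold as well (11.5% of all genes). Of the 35 members 31 lay below 0 (21 to 31 over the alternatives), as did 6675 of all 13245 genes tested. The median of the members was -0.14, against 0.00 over all genes, and under quantile normalization it was -0.03. The libraries did not overlap in 8 members, all lower in OGE (22.9%, against 19.6% of all genes lower and 38.2% in either direction). Among the catalytic subunits the log2 fold change was -0.10 with an SE of 0.190 (adjusted p = 0.754) for Psmb5, -0.31 with an SE of 0.157 (adjusted p = 0.194) for Psmb6 and -0.15 with an SE of 0.112 (adjusted p = 0.375) for Psmb7. For Psmb6 the OGE libraries reached from 85.5 to 103 FPKM and the control libraries from 86.1 to 138 FPKM, and the difference was not larger than this spread. Without control replicate 1, all 3 were called lower, with log2 fold changes of -0.35 for Psmb5, -0.50 for Psmb6 and -0.27 for Psmb7 (limma adjusted p = 0.0281, 0.00403 and 0.0316). Psmb4, the member with the highest level, had 156, 148 and 153 FPKM in OGE cells, against 160.1, 238 and 213 FPKM in control cells, and all OGE libraries lay below the controls without passing the test. Psmc5 was not called without control replicate 2, control replicate 3, OGE replicate 1 or OGE replicate 2, and without control replicate 1 there were 12 lower members. The summed FPKM of the 35 members was 2516 ± 15.1 in OGE, 2823 ± 133 in OGP and 2805 ± 239 in control (SD, n = 3 each).

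In immune cells and under interferon, Psmb8, Psmb9 and Psmb10 take the places of Psmb5, Psmb6 and Psmb7 in the core. FPKM of Psmb5 over Psmb8 was 4.45 to 5.17 in OGE, 2.13 to 2.17 in OGP and 1.97 to 2.37 in control libraries. Psmb6 over Psmb9 was 24.6 to 30.6 in OGE, 8.93 to 11.0 in OGP and 10.2 to 11.1 in control libraries. Psmb7 over Psmb10 was 1.18 to 1.41 in OGE, 0.389 to 0.423 in OGP and 0.697 to 0.825 in control libraries. In each ratio the OGE libraries lay above all others, and for Psmb7 over Psmb10 the OGP libraries lay below all others. The inducible partners carried most of these differences. All 3 were lower in OGE than in OGP cells. Psmb10 fell by 1.90 and Psmb9 fell by 1.54 on the log2 scale, where the catalytic members ranged between -0.26 and -0.09.

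Genes that work with the proteasome were counted by list. Of all genes tested, 13.8% were higher and 16.0% lower in OGP against control by adjusted p alone. In OGE against OGP 10.6% were higher and 10.2% lower. The lists hold few genes, so their counts are a description. Of the 5 chaperones of 20S assembly tested, 1 rose in OGP against control (Psmg2, log2 fold change 0.37) and 3 fell in OGE against OGP. Of these, Psmg4 fell by 0.45 and Pomp fell by 0.36. Of the 5 activators and inhibitors of the core, 2 fell in OGP against control (log2 fold change -0.37 for Psme3 and -0.24 for the inhibitor Psmf1). Psme2 and Psme1, the subunits of the interferon-inducible activator, had log2 fold changes of -0.99 and -0.82 in OGE against OGP and fell, while 2 others rose. Of the 2 other 26S subunits, Sem1, a small lid subunit, fell by 0.62 in OGE against OGP, and none changed in OGP against control. Of the 6 enzymes and adaptors bound to the proteasome, 0 changed in any of the 3 comparisons by limma's adjusted p. Rps27a, a ubiquitin gene, rose in OGP against control (log2 fold change 1.71) and fell in OGE against OGP (-1.17). Rps27a had 297, 121 and 111 FPKM in OGE cells, so that OGE replicate 1 stood apart, against 320.3, 368 and 384 FPKM in OGP cells. Among shuttle factors, Ubqln1 fell in OGP against control (log2 fold change -0.46), and Ddi2 (0.57) and Ubqln2 (0.39) rose in OGE against OGP. Nfe2l1 had log2 fold changes of 0.03 in OGP against control, -0.23 in OGE against OGP and -0.20 in OGE against control, none of them past the test. Listed with Nfe2l1 were Nfe2l2, Ngly1, Ddi2, Bach1, Mafg and Mafk. Of these 7 genes, Nfe2l1 included, 3 rose and 1 fell in OGP against control, Mafg (0.62) and Mafk (0.51) most. Against OGP, 3 rose and 1 fell in OGE cells, Mafg (0.58) and Ddi2 (0.57) most.

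Reads of some members could stem from a neighbour. Another gene overlaps 17 of the 37 members, and in 6 of them it holds at least 1% as many reads as the member. These are Psmc3ip with Mlx (112%), Psmb7 with Nek6 (68.1%), Psmc3 with Slc39a13 (34.3%), Psma2 with AW209491 (10.3%), Psmd13 with Gm15542 (9.94%) and Sirt3 (4.97%), and Psma3 with 3110056K07Rik (1.78%). AW209491 and Gm15542 lie on the strand of the member, so counting by strand would not separate them. The others lie on the opposite strand, and no source used here states whether reads were counted by strand. The values of Psmc3ip, Psmb7, Psmc3, Psma2 and Psmd13 are thus less certain than those of the other members. The 4 pseudogenes with a name of this kind, left out by the rule, held 12 reads in all libraries.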

How the data were processed

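RNA-seq of 9 HT22 libraries, 3 per group, was analysed. The FPKM were deposited by the authors, who used HISAT2 2.0.5 with the genome build mm10 and then featureCounts. For the step from counts to FPKM, no tool is given in the sources used here. Reads were recovered from the deposited FPKM and gene lengths, and 100% of values came out whole within 0.1 reads. The 13245 genes whose mean reached 0.5 FPKM were fitted in 1 model of 9 libraries on log2(FPKM + 0.5), using limma 3.58.1 (R 4.3.3) and a trended prior for the variance. Benjamini-Hochberg adjustment ran over these genes, and log2 fold changes are on the log2(FPKM + 0.5) scale, which understates changes of low genes. That the libraries come from separate cultures is not stated, although they are called biological replicates, and the p-values may reflect technical spread alone.

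The members and the gene lists were chosen with earlier results of these data known. Log2 fold changes are given for members with an adjusted p of at most 0.05 (up to 10 per direction) and for Psmb5, Psmb6 and Psmb7. Of the other lists, up to 2 genes with the largest change past the test are named, and Nfe2l1. Psmb8 to Psmb10 and the other listed genes are no members. Paaf1, listed with the assembly chaperones, was not analysed here. Some results of the ubiquitin genes and the shuttle factors, their counts included, are not reported here. Alternatives were other pseudocounts, filters, scalings and variances, voom on recovered reads, 6 libraries at a time, a replicate block, leaving out each library, and, chosen after seeing the data, corrections for GC content and transcript length (loess, span 0.3, longest GENCODE M21 transcript).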

Additional observations from a re-analysis of the deposited data

How the results depend on the processing

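All 25 alternatives left 0 members past both the adjusted p and the fold threshold in each comparison. The counts by adjusted p alone were less stable. In OGP against control the higher members (4) numbered 2 with no filter on low values, with length corrected and with 6 libraries alone, and the lower members (6) numbered 3 with equal medians, 2 with 6 libraries alone and 10 with GC and length corrected. For OGE against OGP the higher members (1) numbered 4 under quantile normalization and with GC and length corrected, 3 with length corrected, 2 with GC corrected, voom on recovered reads or 6 libraries alone, and 0 with equal medians. The lower members (5) numbered 2 under quantile normalization, 3 with length corrected, 11 with GC corrected and 13 with 6 libraries alone. For OGE against control the lower members (1) numbered 2 among protein-coding genes alone, under quantile normalization, with length corrected and by voom, 6 with GC corrected, 5 with GC and length corrected and 0 with 6 libraries alone. Without control replicate 1 and OGE replicate 3 together, 7 were higher and 11 lower in OGP against control, 3 higher and 12 lower in OGE against OGP, and 1 higher and 10 lower in OGE against control.

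Leaving out 1 library at a time, the counts by adjusted p alone ranged from 1 to 7 higher and 0 to 10 lower in OGP against control, 0 to 3 higher and 2 to 12 lower in OGE against OGP, and 0 to 12 lower in OGE against control. The median log2 fold change of the members ranged from -0.027 to 0.12 in OGP against control, -0.18 to -0.13 in OGE against OGP and -0.18 to -0.081 in OGE against control. For the catalytic subunits in OGP against control, the log2 fold change ranged from -0.26 to 0.15 for Psmb5, -0.30 to 0.032 for Psmb6 and -0.0077 to 0.18 for Psmb7, and for Psmb5 in OGE against control from -0.35 to 0.059.

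The median of the members in OGP against control was -0.069 with length corrected and -0.091 with GC and length corrected. For OGE against OGP it was -0.040 under quantile normalization, -0.029 with length corrected and -0.038 with GC and length corrected, and for OGE against control -0.026 under quantile normalization. The Psmb5 value in OGP against control, -0.01, turned to 0.030 with equal medians, 0.072 with GC corrected and 0.00097 by voom. The value in OGE against OGP turned to 0.10 under quantile normalization and to 0.0864 and 0.0857 with length and with GC and length corrected, and that in OGE against control to 0.053 under quantile normalization and 0.0015 with GC corrected. The Psmb7 value in OGP against control turned to -0.0089 with GC corrected, -0.0049 with GC and length corrected and -0.0077 without control replicate 1 and OGE replicate 3. The cause was not tested.

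Whether replicate numbers pair the libraries cannot be settled with 3 libraries per group. Deviations of libraries with the same number correlated at -0.18 to 0.32, over 0.1 in 2 of 9 pairs, and 3 of 9 libraries correlated best with their own number. With the replicate block there were 1 higher and 4 lower members in OGP against control, 0 higher and 3 lower in OGE against OGP and 1 lower in OGE against control. With the replicate block and GC and length corrected there were 1 higher and 10 lower in OGP against control (median -0.091, Psmb7 -0.0049), 2 higher and 3 lower in OGE against OGP (median -0.038, Psmb5 0.0857) and 3 lower in OGE against control.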
